A study of Mus musculus with 5 samples.

Results

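The genes of the renin-angiotensin system were followed in kidney cortical tissue of *Fnip1* null mice. The 7 genes were chosen by symbol, with earlier results of these data known: *Ren1*, *Agt*, *Ace*, *Agtr1a*, *Agtr1b*, *Mme* and *Enpep*, of 24421 gene symbols counted in all. The *Fnip1* null mice (*Fnip1*-/-) carried a constitutive mutation made by ENU, a chemical mutagen, so it was present in every cell of the body and not in the kidney alone. RNAseq libraries came from 3 *Fnip1* null mice, numbered 8637, 9210 and 9121, and from 2 wildtype mice (*Fnip1*+/+), numbered 9055 and 9056, all on a C57BL6J background. The study's text calls the control mice heterozygous in places, and the genotype used here is the one in the sample labels. The study's text counts more wildtype mice than were analysed here, and the name of the file for mouse 9210 carries another number than its label, which is the one used. Each library was from a separate mouse, and the labels give neither age nor sex.

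Renin, an aspartyl protease made by juxtaglomerular cells of the afferent arteriole, cuts angiotensinogen to release angiotensin I, and angiotensin-converting enzyme turns this into angiotensin II. Angiotensin II acts through its receptors to constrict vessels, to raise sodium reabsorption and, as negative feedback, to lower renin. Kidney tubule cells also carry peptidases on their brush border that trim angiotensin peptides, among them neprilysin (*Mme*), which forms shorter peptides from angiotensin I, and aminopeptidase A (*Enpep*), which turns angiotensin II into angiotensin III.

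None of the 6 genes that could be tested passed the threshold between *Fnip1* null and wildtype kidneys, and the 7th, *Agtr1b*, had 1 read in all 5 mice together. The largest differences were in the enzymes that make angiotensin II. *Ren1* was 2.46-fold higher in the *Fnip1* null mice and *Ace* was 2.44-fold lower, each without overlap between the genotypes, while the angiotensinogen gene *Agt*, the receptor gene *Agtr1a* and *Enpep* overlapped. *Mme* was 1.31-fold higher, also without overlap. Levels are given as normalized CPM, which are counts scaled to a common library size by the TMM method, and the threshold was an FDR of 5% with at least a 2-fold change in edgeR's quasi-likelihood test. By that rule 0 of 6 members were called, against 0.526% of all 13874 genes tested. At an unadjusted p under 0.05 there were 3 of 6 members (*Ace*, *Mme* and *Ren1*), against 25.1% of all genes. The 3 *Fnip1* null mice lay above both wildtype mice for 2 of 6 members, which was so for 22.9% of all genes, and below both for 1 of 6, which was so for 23.0%. The median log2 fold change was 0.02 over the 6 members and 0.0035 over all genes tested. Leaving out 1 *Fnip1* null mouse changed the number called over the whole table from 73 to between 0 and 963. The threshold stayed the same, so the number of genes that passed it depended on single mice.

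**Figure D1:**
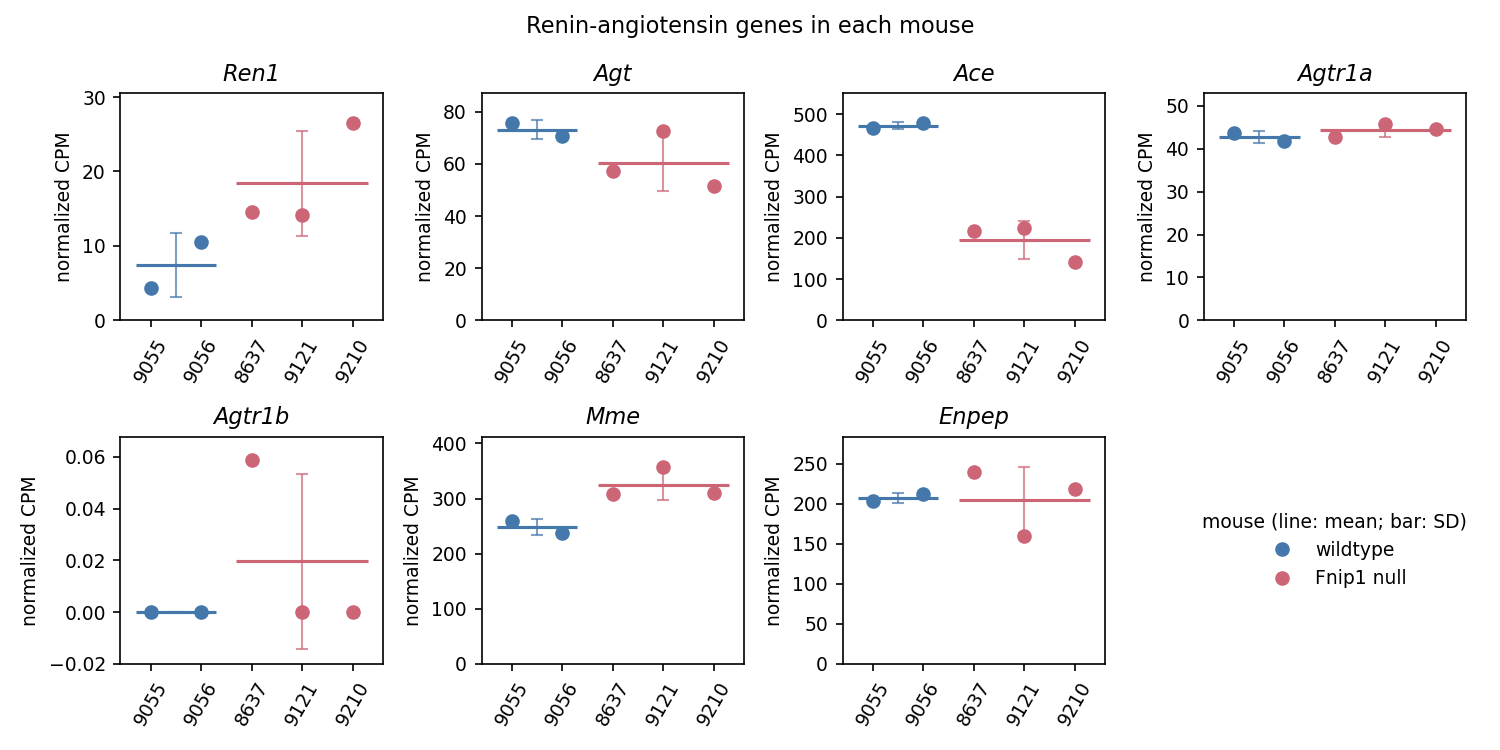
Normalized CPM (y axis, linear, a separate scale for each gene) of the 7 genes in each mouse (x axis), with wildtype mice in blue and *Fnip1* null mice in red, the group mean as a line and its SD as a bar (n = 2 and n = 3). *Ace* separated the genotypes most widely, at 466 and 478 in wildtype mice against 141 to 223 in *Fnip1* null mice, and the single read of *Agtr1b* was in mouse 8637.

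Both genes with the largest differences share the promoter letters TATAA with *Agt* and *Agtr1b*, and the sequence around them is printed to compare the genes. These letters are the core of the TATA box, an element that helps to place the start of transcription, and a match is a description and not a shown site. The motif TATAA was searched in the 250 bases before each start in RefSeq promoters of GRCm38.p6, which held 6 of the 7 genes and no entry for *Agtr1a*. It stood on the gene's strand in the last 50 bases before 1 start each of *Ren1*, *Agt*, *Ace* and *Agtr1b*, a place where 4.93% of 32851 promoters of all genes held it. The 30 bases around the motif, with TATAA in capitals, were as follows.
Ren1, chr1:133350635-133350664, + strand: acatggtgtgTATAAaagaaggctcagggg
Agt, chr8:124569717-124569746, - strand: accccttgagTATAAataagcctgcttggc
Ace, chr11:105967909-105967938, + strand: ggctgggtttTATAAtccgcagggcggtcg
Agtr1b, chr3:20367189-20367218, - strand: ccctttgctgTATAAattgtagctgtctcc
The motif began 29 bases before the start in *Ren1* and *Ace*, 30 in *Agt* and 31 in *Agtr1b*. The other start of *Ace* and the 3 starts of *Mme* had no TATAA on either strand of the 250 bases. *Enpep* had it there but not in the last 50 bases, and 22.8% of all promoters held it on either strand of the 250 bases. Genes with these letters went both ways here, since *Ren1* was the highest and *Ace* the lowest of the 6 fold changes.

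Angiotensinogen, the substrate of renin, is encoded by *Agt* (ENSMUSG00000031980, GRCm38 chr8:124556534-124569706, - strand). It is made mainly by the liver, and the kidney makes some in its proximal tubules. In the cortex, *Agt* was at 57.2, 51.7 and 72.7 normalized CPM in *Fnip1* null mice 8637, 9210 and 9121, and at 75.7 and 70.7 in wildtype mice 9055 and 9056. Mouse 9121 lay between both wildtype mice, and the other 2 *Fnip1* null mice lay below them. Means were 60.5 ± 10.9 (SD, n = 3) and 73.2 ± 3.56 (SD, n = 2). The log2 fold change was -0.27 (SE 0.153, 95% interval -0.64 to 0.09, edgeR adjusted p = 0.308). Without mouse 9121 it was -0.43, with an adjusted p of 0.106.

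Renin is encoded by *Ren1* (ENSMUSG00000070645, GRCm38 chr1:133350510-133360325, + strand). C57BL/6 mice carry this single renin gene. The symbol *Ren2*, the duplicated renin gene of other strains, had 0 counts in all 5 mice. The annotation of the counting is not given, so this 0 is no evidence on the number of renin genes. *Ren1* was at 14.5, 26.5 and 14.2 normalized CPM in *Fnip1* null mice 8637, 9210 and 9121, from 246, 446 and 269 reads, and at 4.41 and 10.5 in wildtype mice 9055 and 9056, from 71 and 183 reads. All 3 *Fnip1* null mice were above both wildtype mice, but the wildtype mice differed from each other more than the nearest *Fnip1* null mouse differed from mouse 9056. The mean was 18.4 ± 7.02 (SD, n = 3) against 7.44 ± 4.28 (SD, n = 2).

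The log2 fold change of *Ren1* was 1.30 (SE 0.442, 95% interval 0.23 to 2.37), with an unadjusted p of 0.0244 and an adjusted p of 0.147 by edgeR's quasi-likelihood test. It passed the threshold by edgeR's likelihood ratio test (adjusted p = 0.0448, where 4.53% of genes were called) and by DESeq2 (adjusted p = 0.0282, where 3.51% were called), and missed it by edgeR's exact test (adjusted p = 0.0513, where 4.07% were called). The size of the change turned on single mice. The log2 fold change was 0.81 without wildtype mouse 9055, 2.05 without wildtype mouse 9056 and 0.94 without *Fnip1* null mouse 9210, with adjusted p of 0.39, 0.544 and 0.353. Without mouse 8637 or mouse 9121 it was 1.45 each time.

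Angiotensin-converting enzyme, a peptidase of endothelium and of the proximal tubule brush border, is encoded by *Ace* (ENSMUSG00000020681, GRCm38 chr11:105967945-105989964, + strand). *Ace* was at 217, 141 and 223 normalized CPM in *Fnip1* null mice 8637, 9210 and 9121, from 3689, 2366 and 4219 reads. In wildtype mice 9055 and 9056 it was at 466 and 478, from 7498 and 8360 reads. The wildtype mice nearly coincided, and all 3 *Fnip1* null mice were more than 2-fold below both of them. The mean was 194 ± 45.9 (SD, n = 3) against 472 ± 8.72 (SD, n = 2), a difference of -59.0%.

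The log2 fold change of *Ace* was -1.29 (SE 0.202, 95% interval -1.77 to -0.80), and with an unadjusted p of 5.78e-04 the gene stood at rank 139 of all genes tested. The edgeR adjusted p of 0.0567 missed the FDR of 5%. The gene was called by 3 other tests, at an adjusted p of 1.14e-05 by edgeR's exact test, 1.11e-05 by its likelihood ratio test and 1.14e-06 by DESeq2, and missed the FDR by the legacy quasi-likelihood test (0.0575). The quasi-likelihood test also called it without mouse 8637 (log2 fold change -1.38, adjusted p = 0.0121, where 6.82% of genes were called) and without mouse 9121 (-1.40, adjusted p = 0.0363, where 0.973% were called). Without mouse 9210 it was -1.10 (adjusted p = 0.122). Part of *Ace* is overlapped by an antisense gene, *Gm11651*, whose span covers 3506 of the 5287 exon bases of *Ace*. *Gm11651* was listed at 0 counts in all 5 mice, and whether the counting used strand is not given in the sources used here. This 0 therefore does not show whether all reads on the overlapped bases were counted for *Ace*.

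The receptor for angiotensin II is encoded in mice by a pair of genes, *Agtr1a* (ENSMUSG00000049115, GRCm38 chr13:30336441-30382867, + strand) and *Agtr1b* (ENSMUSG00000054988, GRCm38 chr3:20314473-20367177, - strand). *Agtr1a* is the main form in the kidney, and *Agtr1b* is known from the adrenal gland and the pituitary. Their coding sequences, 1077 bases each in GENCODE M21, were identical at 978 positions (90.8%). The first 60 coding bases on GRCm38, with the 7 positions that differ in capitals, show where the pair differs.
Agtr1a, chr13:30380954-30381013, + strand: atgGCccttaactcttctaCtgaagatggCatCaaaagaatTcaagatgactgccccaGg
Agtr1b, chr3:20316381-20316440, - strand: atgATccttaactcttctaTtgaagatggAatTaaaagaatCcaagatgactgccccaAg
Of 1028 stretches of 50 coding bases in *Agtr1b*, the length of 1 read, 33 (3.21%) occurred exactly in *Agtr1a*. Matches with mismatches were not counted. Over the whole *Agtr1b* transcript these 33 were 1.57% of 2098 stretches.

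*Agtr1a* was at 42.7, 44.6 and 45.8 normalized CPM in *Fnip1* null mice 8637, 9210 and 9121 and at 43.6 and 41.7 in wildtype mice 9055 and 9056. The genotypes overlapped, and all 5 mice stayed between 41.7 and 45.8. Its mean was 44.4 ± 1.58 (SD, n = 3) against 42.7 ± 1.36 (SD, n = 2). The log2 fold change was 0.06 (SE 0.0883, 95% interval -0.16 to 0.27, edgeR adjusted p = 0.718), so the interval left room for a difference of up to 0.27 on the log2 scale. *Agtr1b* had 1 read in mouse 8637 and 0 in the other 4 mice. A count of 0 allows up to 3 reads in a library, here 0.158 to 0.186 normalized CPM, which covers counting error only, and the gene was not tested.

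Neprilysin, a membrane metallopeptidase of the brush border, is encoded by *Mme* (ENSMUSG00000027820, GRCm38 chr3:63241537-63386030, + strand). It was at 309, 310 and 358 normalized CPM in *Fnip1* null mice 8637, 9210 and 9121 and at 259 and 237 in wildtype mice 9055 and 9056. All 3 *Fnip1* null mice were above both wildtype mice. Means were 325 ± 28.1 (SD, n = 3) and 248 ± 15.0 (SD, n = 2), and the log2 fold change was 0.39 (SE 0.112, 95% interval 0.12 to 0.66, edgeR adjusted p = 0.116). DESeq2 gave an adjusted p of 0.0347 and the quasi-likelihood test without mouse 8637 gave 0.0414, in both cases with a change under 2-fold.

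Aminopeptidase A is encoded by *Enpep* (ENSMUSG00000028024, GRCm38 chr3:129269175-129332720, - strand). It was at 239, 218 and 159 normalized CPM in *Fnip1* null mice 8637, 9210 and 9121 and at 203 and 212 in wildtype mice 9055 and 9056. The *Fnip1* null mice lay on both sides of the wildtype mice, with 9121 below and the other 2 above. The means of 205 ± 41.2 (SD, n = 3) and 207 ± 6.29 (SD, n = 2) gave a log2 fold change of -0.01 (SE 0.174, 95% interval -0.44 to 0.41, edgeR adjusted p = 0.968). The sign turned with library size scaling alone (0.14), without mouse 9121 (0.14) and without mouse 9056 (0.01).

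**Figure D2:**
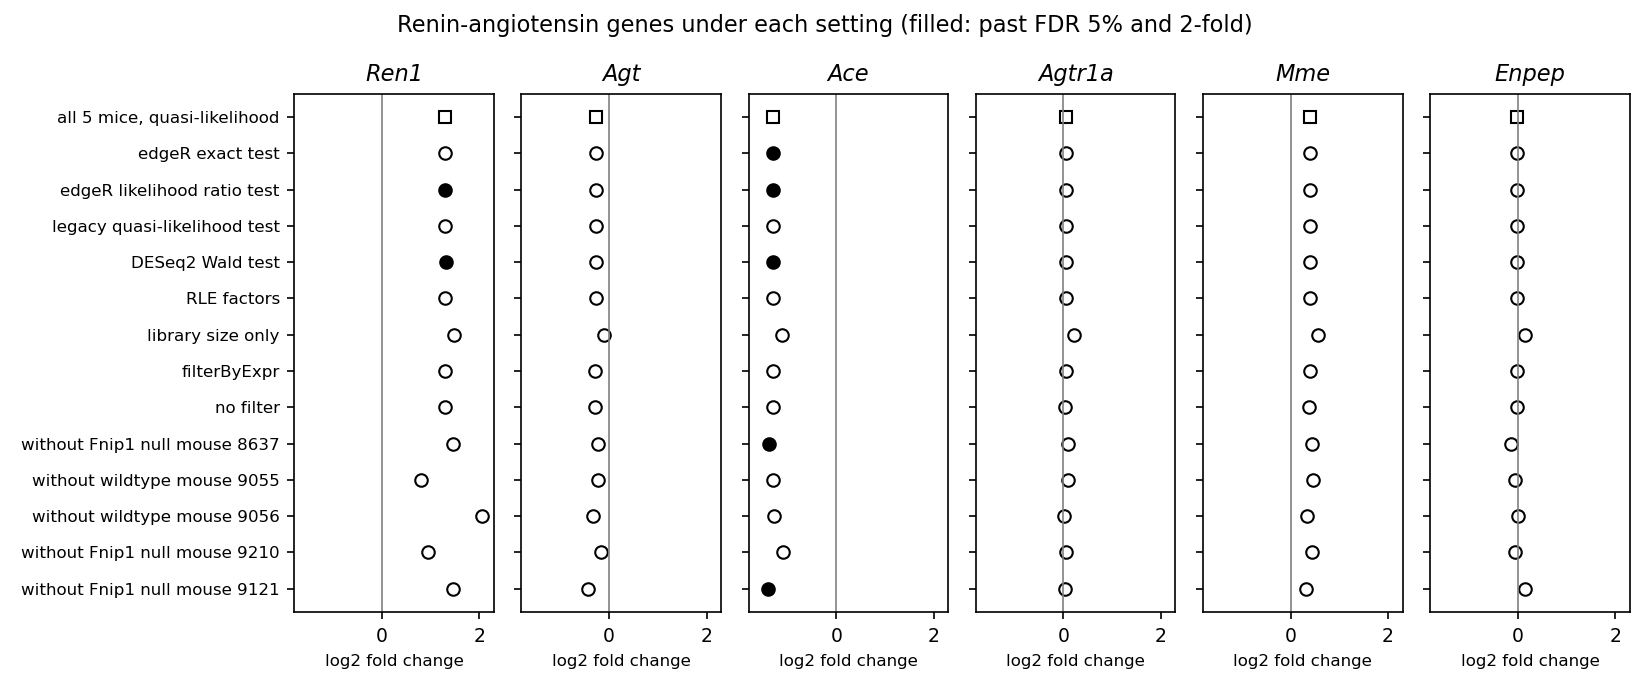
Log2 fold change of *Fnip1* null over wildtype (x axis, the same scale for the 6 genes tested) with all 5 mice and the quasi-likelihood test (squares) and under 13 other settings (circles, 1 per row); a filled symbol passed an FDR of 5% and 2-fold. *Ren1* spread from 0.81 to 2.05 and was called in 2 of the 13 other settings, and *Ace* stayed between -1.40 and -1.10 and was called in 5.

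Levels of different genes were compared per length, as normalized CPM per kb of exon in GENCODE M21. The length was the union of exons over all annotated transcripts, whether or not the kidney uses them. It was 11542 bases over 8 transcripts for *Mme* and 1891 bases over 1 transcript for *Agt*. Before division by length, *Mme* (259 and 237) was above *Agt* (75.7 and 70.7) in wildtype mice 9055 and 9056. The order below therefore depends on the length chosen, and no other length was tried. In wildtype mice *Ace* led with levels of 88.1 and 90.4, followed by *Enpep* (43.1 and 45.0), *Agt* (37.4 and 40.0), *Mme* (20.5 and 22.4), *Agtr1a* (15.0 and 15.6) and *Ren1* (2.66 and 6.34), with *Agtr1b* at 0. None of these neighbours in the order overlapped over the 2 mice. In *Fnip1* null mice the per kb level of *Ace* was 26.7 to 42.2, within the reach of *Enpep* (33.8 to 50.8) and of *Agt* (27.3 to 38.4), so these 3 genes had no separable order. The per kb levels of *Mme* (26.8 to 31.0) also reached into those of *Agt* and *Ace*. *Agtr1a* (15.3 to 16.4) and *Ren1* (8.57 to 16.0) overlapped as well, through mouse 9210, where *Ren1* reached 16.0 per kb.

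**Figure D3:**
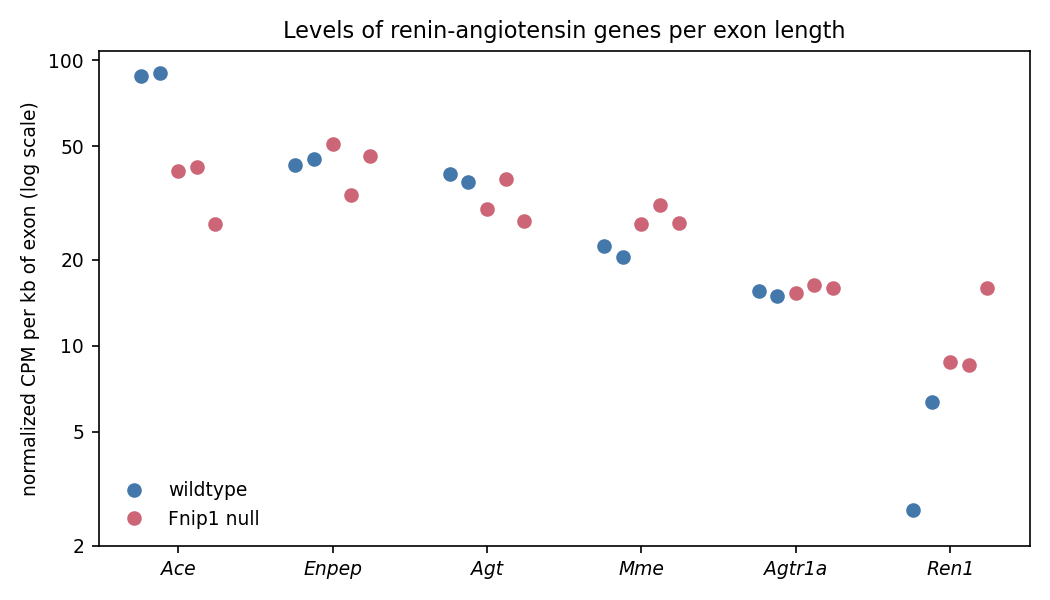
Normalized CPM per kb of exon (y axis, log scale) of the 6 genes with reads in wildtype mice, with 1 point per mouse, wildtype in blue and *Fnip1* null in red. Exon length is the union over all annotated transcripts, and the order depends on it. In wildtype mice the genes keep separate levels from *Ace* (88.1 to 90.4) down to *Ren1* (2.66 to 6.34), and in *Fnip1* null mice *Ace*, *Enpep*, *Agt* and *Mme* lie within 26.7 to 50.8.

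The other genes of the pathway were a list of 19, of which 13 had enough counts to be tested. None was called by the quasi-likelihood test (0 of 13, against 0.526% of all genes), with 1 higher and 3 lower in *Fnip1* null mice at an unadjusted p under 0.05, a share near the 25.1% of all genes. All *Fnip1* null mice lay below both wildtype mice for 6 of 13 (23.0% of all genes) and above for 1 of 13 (22.9%). The log2 fold change was above 0 in 4 of them and under 0 in 9, and the list's median was -0.16. *Mas1*, the receptor for the shorter vasodilating angiotensin peptide, was at 0.648, 0.713 and 0.422 normalized CPM in *Fnip1* null mice 8637, 9210 and 9121 and at 1.37 and 1.60 in wildtype mice 9055 and 9056. It was below both wildtype mice in every *Fnip1* null mouse at a low level, with a log2 fold change of -1.32 (SE 0.36, edgeR adjusted p = 0.108). It was called by the exact test (adjusted p = 0.0362, where 4.07% of genes were called) and the likelihood ratio test (0.0256, where 4.53% were called). *Agtr2*, the other angiotensin II receptor, was at 0.0572 to 0.317 normalized CPM over the 5 mice and was not tested.

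*Atp6ap2*, the prorenin receptor and a subunit of the vacuolar proton pump, was at 178, 211 and 189 normalized CPM in *Fnip1* null mice 8637, 9210 and 9121 and at 137 and 146 in wildtype mice 9055 and 9056. The genotypes did not overlap, with a log2 fold change of 0.45 (SE 0.105, edgeR adjusted p = 0.0914). Among the aminopeptidases, *Anpep*, which acts on angiotensin III, gave -0.52 (adjusted p = 0.116) and *Rnpep* -0.31 (adjusted p = 0.113), both lower in all 3 *Fnip1* null mice, and *Lnpep* gave -0.17 with overlap. The carboxypeptidase *Prcp* gave -0.18, the endopeptidases *Nln* -0.12, *Prep* -0.12 and *Thop1* 0.00, the receptor-associated protein *Agtrap* -0.16, the carboxypeptidase *Ctsa* 0.03 and tissue kallikrein *Klk1* 0.13. The mast cell and neutrophil proteases *Cma1*, *Cpa3* and *Ctsg*, which can process angiotensin peptides, were at or below 0.416 normalized CPM in every mouse, and *Mrgprd* had no reads.

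A list of 18 genes that mark renin cells or take part in renin control had 16 tested members. *Adcy5*, an adenylyl cyclase of the cyclic AMP pathway that drives renin, rose, at 10.6, 14.3 and 12.1 normalized CPM in *Fnip1* null mice 8637, 9210 and 9121 against 4.72 and 4.86 in wildtype mice 9055 and 9056. All 3 *Fnip1* null mice were more than 2-fold above both wildtype mice, and the log2 fold change was 1.37 (SE 0.186, edgeR adjusted p = 0.0466). It was the 1 of 16 called, where 0.404% of all genes were called higher. It was not called without mouse 9210, 9055 or 9056, where the count over all genes was 0. At an unadjusted p under 0.05 there were 7 higher and 2 lower of 16 (25.1% of all genes), 13 of 16 log2 fold changes were positive, and the list's median was 0.42. The genotypes did not overlap for 11 of 16, with *Fnip1* null mice higher in 9 (22.9% of all genes) and lower in 2 (23.0%). *Adcy6*, the other adenylyl cyclase of the list, was far more abundant than *Adcy5* and changed less. It was at 177, 178 and 193 normalized CPM in *Fnip1* null mice 8637, 9210 and 9121 and at 167 and 151 in wildtype mice 9055 and 9056. Its log2 fold change was 0.20 (edgeR adjusted p = 0.234).

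Among the markers of renin cells, *Akr1b7*, an aldo-keto reductase expressed beside renin, was at 5.30, 9.51 and 5.86 normalized CPM in *Fnip1* null mice 8637, 9210 and 9121 and at 2.86 and 3.72 in wildtype mice 9055 and 9056. *Gja5*, the connexin that joins juxtaglomerular cells, was at 6.72, 10.2 and 10.4 against 4.47 and 4.46. Both separated the genotypes without passing the threshold, at log2 fold changes of 1.06 (SE 0.318, edgeR adjusted p = 0.122) and 1.03 (SE 0.241, adjusted p = 0.0903). Both were called by the exact test (4.07% of all genes), the likelihood ratio test (4.53%), DESeq2 (3.51%) and the quasi-likelihood test without mouse 8637 (6.82%). *Gja4*, another connexin of the list, overlapped between the genotypes, with a log2 fold change of 0.27 (edgeR adjusted p = 0.589). *Akr1b7* and *Ren1* were each highest in mouse 9210.

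Of the receptors and enzymes that act on renin release, *Casr*, the calcium-sensing receptor, gave a log2 fold change of 0.58 (adjusted p = 0.0602), *Npr1*, a natriuretic peptide receptor, 0.69 (0.0719), *Ptger4*, a prostaglandin receptor, 0.70 (0.116), and *Adrb1*, the adrenergic receptor of these cells, 0.55 (0.237), all by edgeR. *Pde3b*, a phosphodiesterase of cyclic nucleotides, gave 0.76 (adjusted p = 0.0554). For these 5 genes the genotypes did not overlap, with the *Fnip1* null mice higher, as for 22.9% of all genes. Whether each of them raises or lowers renin was not compared, so their shared direction is no measure of renin control. The nuclear receptor genes *Nr1h3*, the liver X receptor alpha, and *Vdr*, the vitamin D receptor, went the other way, at -0.74 (adjusted p = 0.0593) and -0.59 (adjusted p = 0.0985). *Gnas*, *Creb1* and *Rbpj*, which code for common parts of the signalling and transcription behind renin, gave -0.10, 0.02 and 0.04. The macula densa genes were low, with *Nos1* at 1.24 to 2.38 normalized CPM (log2 fold change 0.29) and *Ptgs2* at 0.119 to 0.37, which was not tested. All genes of this list were read in whole tissue, and which cells carried the differences was not tested.

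**Figure D4:**
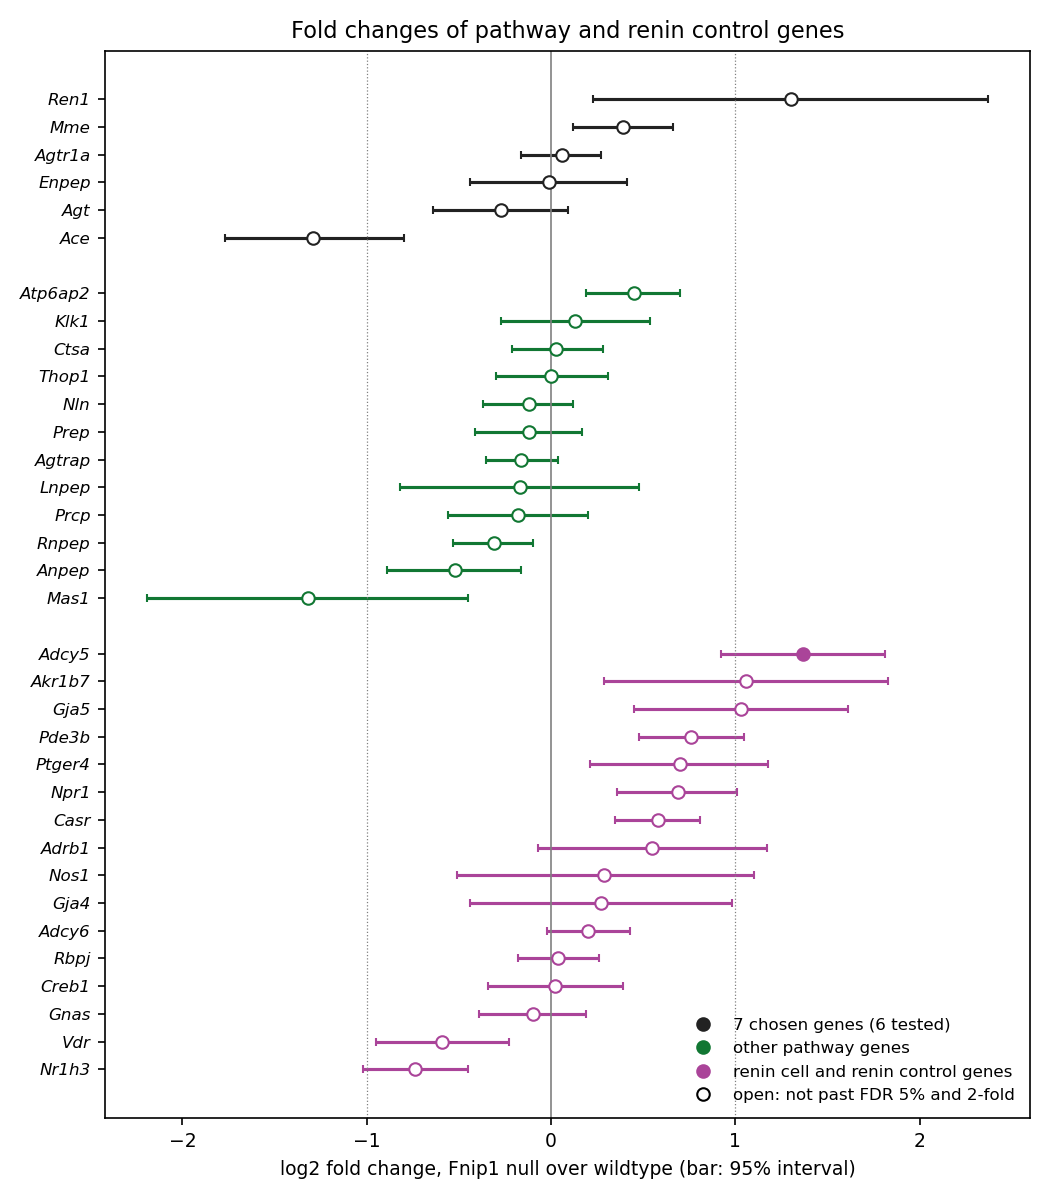
Log2 fold change of *Fnip1* null over wildtype with its 95% interval (x axis) for the 6 tested renin-angiotensin genes, the other pathway genes described here and 16 renin cell and renin control genes (y axis); the dotted lines mark 2-fold and a filled symbol passed the FDR of 5% and 2-fold. *Adcy5* at 1.37 is the filled point, *Ren1* has the widest interval of the 6 (0.23 to 2.37), and *Ace* at -1.29 lies past 2-fold with an open symbol.

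In whole tissue, fewer cells of a type and less RNA per cell cannot be told apart, so markers of the cells that express these genes are given beside them. Reads counted on genes ran from 15799114 to 19132145 per mouse. *Fnip1* itself fell, at between 16.0 and 21 normalized CPM in *Fnip1* null mice against 48.7 and 51.8 in wildtype mice (log2 fold change -1.48, edgeR adjusted p = 0.033). Proximal tubule markers, 10 genes with *Slc34a1* and *Lrp2* among them, marked the tissue in every mouse. Of these, *Slc7a13* varied widely, at 600, 202 and 4.17 normalized CPM in *Fnip1* null mice 8637, 9210 and 9121. In wildtype mice 9055 and 9056 it was at 1210 and 1380. Of the 5 adrenal cortex markers, *Cyp11b2* was at 0 in every mouse, *Cyp11a1*, *Cyp11b1* and *Cyp21a1* had at most 3 reads in a mouse, and *Star* was at 2.46 to 4.22 normalized CPM.

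The summed level of the proximal tubule markers was 11500 to 16400 normalized CPM in *Fnip1* null mice and 17900 to 20300 in wildtype mice, with 4 of 10 genes below (23.0% of all genes), 2 of 10 above (22.9% of all genes), none called (0.526% of all genes) and a median log2 fold change of -0.34. The log2 fold changes of these markers ran from -2.27 for *Slc7a13* to 0.63 for *Slc5a12*, and those of *Ace*, *Mme* and *Enpep*, which these cells carry on their brush border, were -1.29, 0.39 and -0.01. The summed endothelial markers, the other site of *Ace*, were 322 to 400 in *Fnip1* null mice. In wildtype mice 9055 and 9056 they were 290 and 177, so the wildtype mice differed widely from each other. The log2 fold change was positive in 6 of 6, and in 7009 of all 13874 genes tested. Of the 6 genes 3 were above (22.9% of all genes), 3 overlapped and none was called (0.526% of all genes). The part of these markers in the difference in *Ace* was not tested.

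For *Ren1*, the summed podocyte markers, which stand for glomeruli, were 691 to 809 normalized CPM in *Fnip1* null mice and 387 to 390 in wildtype mice, with 6 of 6 genes above (22.9% of all genes) and 2 called higher (0.404% of all genes), among them the slit diaphragm gene *Nphs1*. The summed smooth muscle, pericyte and mesangial markers were 179 to 286 against 128 to 165, with 8 of 8 log2 fold changes positive and none called (0.526% of all genes). Of these, 4 of 8 genes were above (22.9% of all genes) and 4 overlapped. Adipocyte markers summed to 320 in mouse 9210, to 153 in 9121 and to 52.8 in 8637, with 32.9 to 35.1 in wildtype mice, and mouse 9210 also had the highest *Ren1* and the lowest *Ace*. Leukocyte markers summed to 80.5 to 172 against 89.2 to 107, but 6 of 7 log2 fold changes were positive, with a median of 1.52. Of these, 4 of 7 genes were above (22.9% of all genes), 1 of 7, *Csf1r*, was below (23.0%) and none was called (0.526%). Distal tubule and collecting duct markers summed to 8310 to 12000 against 7760 to 8640, with 6 of 6 log2 fold changes positive and a median of 0.48. Of these, 4 of 6 genes were above (22.9% of all genes) and none was called (0.526% of all genes). The part of these markers in the difference in *Ren1* was not tested.

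Sex-linked genes also differed between the mice. In mouse 9121 *Ddx3y*, *Uty* and *Kdm5d*, genes of the Y chromosome, had 0 counts, and *Eif2s3y*, another, had 7. *Xist*, the RNA of the inactive X, was at 314 normalized CPM in this mouse. The other 4 mice had *Ddx3y* at 42.8 to 52.2 and *Xist* at 0.172 to 1.41. By these genes mouse 9121 was female and the other 4 mice, with both wildtype mice among them, were male. The genotypes were thus not matched for sex, which the fits did not include. The summed male-biased kidney genes, such as *Kap*, came to 5160, 6930 and 18100 in *Fnip1* null mice 9121, 9210 and 8637 and to 34500 and 38400 in wildtype mice. Of these genes 6 of 6 were below in all *Fnip1* null mice (23.0% of all genes), and none was called (0.526% of all genes). The summed female-biased genes were 342 to 876 against 58.1 to 75.4, and 3 of 3 were above (22.9% of all genes). *Cyp4a14* of the 3 was called, where 0.404% of all genes were called higher. Mouse 9121 had the lowest *Enpep* of the 5 mice and the highest *Mme*. Without it, the log2 fold change of *Ace* was -1.40, of *Ren1* 1.45, of *Mme* 0.32 and of *Enpep* 0.14. The other 2 *Fnip1* null mice also had lower male-biased and higher female-biased sums than both wildtype mice. The part of the sex-biased genes in these differences was not tested.

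**Figure D5:**
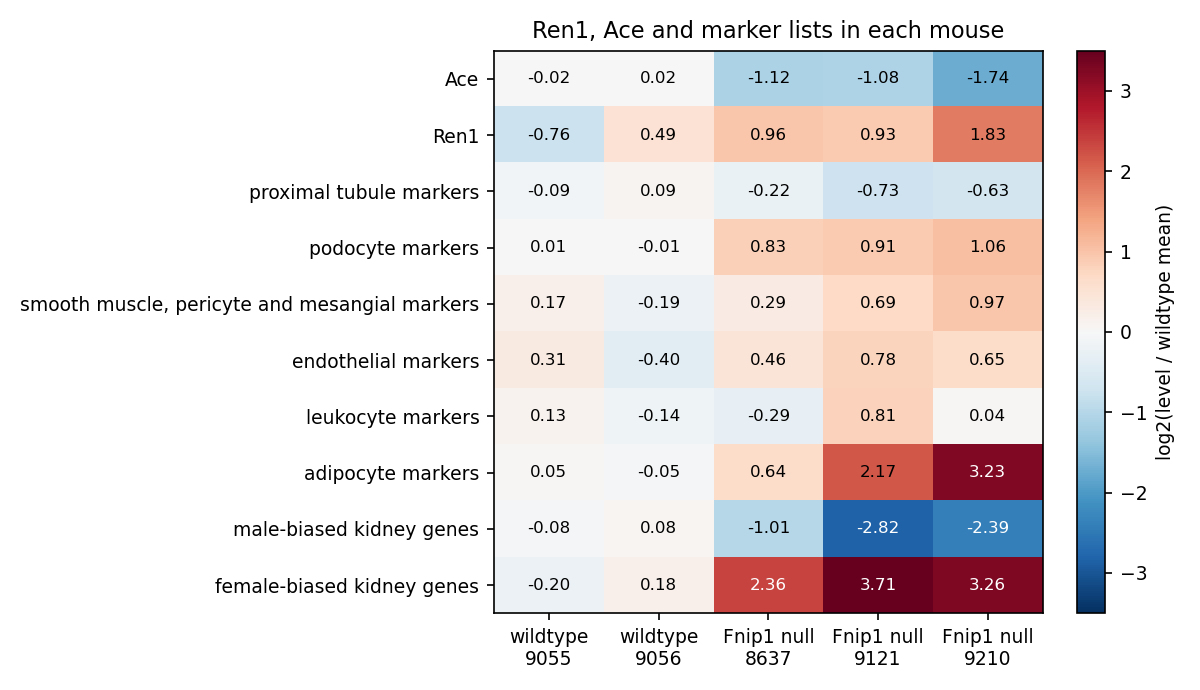
Level of *Ren1*, of *Ace* and of 8 summed marker lists in each mouse (columns), as log2 of the level over the wildtype mean (colour and printed value). *Ace* is at -1.74 and *Ren1* at 1.83 in mouse 9210, where the adipocyte markers are at 3.23, and the podocyte markers are at 0.83 to 1.06 in all 3 *Fnip1* null mice against -0.01 and 0.01 in wildtype mice.

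The genes with the most similar profiles were found by the root mean square difference of log2 normalized CPM over the 5 mice, after subtracting each gene's mean, among 13273 genes. For *Ren1* these were *2810417H13Rik* (0.169), *Pamr1* (0.239) and *Il27ra* (0.267), which were further away than the nearest genes of any other member. *Pamr1* was at 18.6, 34.3 and 26.0 normalized CPM in *Fnip1* null mice 8637, 9210 and 9121 and at 8.14 and 14.0 in wildtype mice 9055 and 9056. For *Ace* they were *Lamb3* (0.134), *Rnf24* (0.139) and *Nxpe3* (0.139), all lowest in mouse 9210. *Rnf24* was at 67.3, 47.3 and 89.6 in *Fnip1* null mice 8637, 9210 and 9121 and at 147 and 174 in wildtype mice 9055 and 9056. For *Agt* they were *Kif26a* (0.00301), *Dzip1l* (0.0338) and *Rps6ka6* (0.051), and for *Agtr1a* *Cd2bp2* (0.00814), *Magoh* (0.00926) and *Gnai2* (0.0144). For *Mme* they were *Tmem123* (0.0238), *Pold2* (0.0308) and *Plekha1* (0.0319), and for *Enpep* *Tk1* (0.0297), *Setmar* (0.0389) and *Rnf8* (0.0427). A likeness over 5 mice is a description, and with so many genes close profiles are found for flat genes in particular.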

How the data were processed

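RNAseq was performed by the authors on cortical kidney tissue with TruSeq libraries and paired-end reads of 50 bases, 1 library per mouse. After a quality filter, the authors aligned the reads to mm10 with TopHat2 2.1.0 and made counts per gene with HTSeq 0.6.1, and the deposited counts were not normalized. The annotation and strand setting of the counting are not given in the sources used here. Reads not assigned to a gene were 39.0% to 42.8% of the entries per mouse, and stayed out of library sizes and tests.

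Tests were run with edgeR 4.0.16 under R 4.3.3. Genes with fewer than 10 counts in more than 2 mice were removed. TMM factors ran from 0.914 to 1.09, and 1 count was 0.0528 to 0.0621 normalized CPM. The genotypes were compared by the quasi-likelihood test (legacy setting off), with Benjamini-Hochberg adjustment over 13874 genes. Standard errors came from the fold change and its F statistic. Alternatives were edgeR's exact, likelihood ratio and legacy tests, DESeq2 1.42.0, other scalings and filters, and leaving out each mouse. The quasi-likelihood test was tested on simulated data. These gave each gene the same spread in all mice, with no sex difference and no single deviating mouse. The changes put in were larger than those of *Ace* and *Ren1*. The simulation therefore cannot show how the test performs for these 2 genes or when single mice are left out. Coordinates and exon lengths are those of GENCODE M21 on GRCm38, the build of mm10, and promoter sequences those of RefSeq on GRCm38.p6.

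The members and gene lists were chosen with earlier results of these data known. The genes named are the 7 members, genes of the lists, and for each tested member the 3 genes of smallest profile difference whose mean normalized CPM was 1 or more. Some genes of the lists are counted but not reported here by name.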

Additional observations from a re-analysis of the deposited data

How the results depend on the processing

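Among the 6 genes tested, *Ren1*, *Agt*, *Ace*, *Agtr1a* and *Mme* kept their sign in all 13 other settings. The sign of *Enpep* (-0.01) turned with library size alone (0.14), without mouse 9056 (0.01) and without mouse 9121 (0.14), and its values without single mice ran from -0.13 to 0.14. The number of these genes called was 0 with the quasi-likelihood test, 1 by edgeR's exact test (*Ace*), 2 by its likelihood ratio test and 2 by DESeq2 (*Ace* and *Ren1*), and 0 to 1 with single mice left out. *Ace* at -1.29 was called at an adjusted p of 1.14e-05, 1.11e-05 and 1.14e-06 in these 3 tests, and ran from -1.40 to -1.10 with single mice left out. *Ren1* was called at 1.30 (adjusted p = 0.0448) by the likelihood ratio test and at 1.31 (0.0282) by DESeq2, missed the threshold at 1.30 (0.0513) by the exact test, and ran from 0.81 to 2.05 with single mice left out. Calls among the other pathway and renin control genes, 1 in the main setting, were 4 by the exact test, 4 by the likelihood ratio test and 3 by DESeq2, and 0 to 3 with single mice left out. Over all genes they were 73, against 565, 628 and 487 in the same order of tests, and 0 to 963 with single mice left out (0 without 9055, 9056 or 9210, 136 without 9121 and 963 without 8637). The cause of these changes was not tested. Scaling by library size alone raised the median log2 fold change of all genes by 0.16 and gave -1.12 for *Ace* and 1.48 for *Ren1*. No paired analysis was possible because the mice carry only their own numbers. Depth was 71 to 446 reads per mouse for *Ren1*, and with 1 read in all *Agtr1b* could not be tested.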
